A study of Mus musculus with 98 samples.

Results

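The peroxisome proliferator-activated receptors Ppara, Ppard and Pparg, their dimerization partner Rxra and the coactivators Ppargc1a (PGC-1α) and Ppargc1b (PGC-1β) were followed by time of day in mice carrying either human or mouse hepatocytes in their livers. These 6 genes were chosen by symbol, with the loss of the daily Ppard amplitude in mouse rows of Hu livers already seen in these data. They are 6 of 19689 mouse gene rows in the liver count table and 6 of 20415 rows in the table of the other tissues, and all 6 passed the filter on low counts in each tissue. The liver table also holds 17729 human gene rows, which were not matched to names here, so the human orthologs in the transplanted cells were not analysed.

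All hosts were male FRGN mice, 10 weeks old, which lack Fah, Rag2 and Il2rg (Fah-/-, Rag2-/-, Il2rg-/-) on a cross with the non-obese diabetic strain. Loss of Fah, the last enzyme of tyrosine breakdown, kills host hepatocytes unless nitisinone (NTBC) is given, and the other deletions remove lymphocytes so that foreign cells are not rejected. Hepatocytes of human (Hu) or mouse (Mu) origin were injected into the spleen. Both arms were cycled on NTBC at 8 mg/l with sulfamethoxazole, trimethoprim and dextrose in the water, and Hu mice were kept only where repopulation by human hepatocytes was stated to be above 70%. The tissues were liver, skeletal muscle, the arcuate nucleus of the hypothalamus (ARC) and the suprachiasmatic nucleus (SCN). They were sampled at zeitgeber time (ZT, hours on the light schedule) 2, 6, 10, 14, 18 and 22, giving 15 Hu and 12 Mu libraries in liver and in muscle, and 10 Hu and 12 Mu libraries in each brain region. The labels do not tie libraries of different tissues to one animal and do not state that replicates are separate animals, so p-values measure the spread between these libraries.

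These receptors are fatty acid sensors of the nuclear receptor family. They bind DNA as dimers with RXR proteins at paired copies of a short element and switch on genes of lipid handling. PPARα is best known in hepatocytes, where fasting activates it to drive fatty acid oxidation and ketone formation. PPARδ favours fatty acid use in muscle and many other tissues, and PPARγ is the master regulator of fat cell formation and lipid storage. The PGC-1 coactivators bind these receptors and the estrogen-related receptors, and raise mitochondrial gene expression. Ppargc1a is induced in muscle by exercise and in liver by fasting.

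In GENCODE vM21 on GRCm38, Ppard spans chr17:28232700-28301474 on the plus strand, Ppara chr15:85734983-85802819 on the plus strand, Pparg chr6:115360951-115490399 on the plus strand and Rxra chr2:27676440-27762957 on the plus strand. Ppargc1a lies at chr5:51454250-51567726 and Ppargc1b at chr18:61298136-61400431, both on the minus strand.

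Before the results, the mouse rows of the livers have to be placed. Levels are given as CPM, counts on a per-million scale of each library's mouse counts after TMM scaling. Mouse Fah ran from 568 to 941 CPM (median 678) in the 12 Mu livers and from 3.45 to 34.2 CPM (median 16.6) in the 15 Hu livers. Rag2 and Il2rg ran from 0.124 to 10 CPM and from 0.325 to 5.68 CPM over all tissues. Every host carries these deletions, so Rag2 and Il2rg check no label. Fah in liver did not overlap between the arms. It was high in the arm labelled as holding transplanted mouse hepatocytes. By design the transplanted hepatocytes are counted in mouse rows in Mu livers and in human rows in Hu livers, so the mouse rows of the arms do not hold the same cells. Human rows held 15.86 to 93.07% of the counts of Hu livers (median 58.67%) and at most 0.02043% in Mu livers. Mouse rows held 7.699 to 87.89 M counts in Hu livers and 97.07 to 118.3 M in Mu livers (M, mega). Totals were 43.1 to 92.05 M in muscle, 23.72 to 47.13 M in the ARC and 25.47 to 34.95 M in the SCN. Of the hepatocyte markers (Alb, Apoa1, Ttr, Serpina1c, Cyp2e1, Cps1, Ass1), 7 of 7 were lower in Hu livers, where their summed level ran from 7645 to 85240 CPM against 99160 to 132600 CPM in Mu livers. Markers of stellate cells, sinusoidal endothelium and bile duct were each higher in Hu livers for 7 of 7 genes, and those of Kupffer cells for 5 of 8. Cartpt, Pomc, Npy and Agrp, which mark the ARC, summed to 104.3 to 237.8 CPM in ARC and 18.91 to 86.09 CPM in SCN libraries. Avp, Vip, Nms and Prok2, which mark the SCN, summed to 32.57 to 395.9 CPM in SCN and 102.8 to 439.3 CPM in ARC libraries, so these markers do not set the libraries labelled SCN above those labelled ARC. In bulk samples such as these, fewer hepatocytes and less RNA per hepatocyte cannot be told apart. The Hu liver ZT18 replicate 3 stood apart, with the highest human share (93.07%), the lowest hepatocyte marker sum (7645 CPM) and the lowest correlation with other livers (median 0.8118).

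Of the 6 genes, 5 have entries in the RefSeq promoter table of GRCm38.p6, with 8 start sites among them. Each entry spans 250 bases before to 50 bases after the start. The Ppard promoter is shown because this gene has the largest daily swing, and the Pparg and Rxra entries because they hold AGGTCA, the core element of nuclear receptors such as RXR, ROR and REV-ERB. Capitals mark AGGTCA on either strand.
Ppard, chr17:28232504-28232803, plus strand: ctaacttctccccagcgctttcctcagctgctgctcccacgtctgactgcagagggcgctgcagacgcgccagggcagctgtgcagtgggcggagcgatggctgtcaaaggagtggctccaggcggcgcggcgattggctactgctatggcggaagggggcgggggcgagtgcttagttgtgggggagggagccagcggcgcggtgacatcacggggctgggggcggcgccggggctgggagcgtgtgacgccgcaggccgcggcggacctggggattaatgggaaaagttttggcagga
Pparg, chr6:115360894-115361193, plus strand: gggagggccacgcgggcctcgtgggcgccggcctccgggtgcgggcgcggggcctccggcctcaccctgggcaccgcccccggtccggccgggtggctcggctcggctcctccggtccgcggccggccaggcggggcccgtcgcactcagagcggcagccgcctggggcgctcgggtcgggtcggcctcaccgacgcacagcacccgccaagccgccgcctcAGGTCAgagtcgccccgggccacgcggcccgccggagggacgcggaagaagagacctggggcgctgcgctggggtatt
Pparg, chr6:115362099-115362398, plus strand: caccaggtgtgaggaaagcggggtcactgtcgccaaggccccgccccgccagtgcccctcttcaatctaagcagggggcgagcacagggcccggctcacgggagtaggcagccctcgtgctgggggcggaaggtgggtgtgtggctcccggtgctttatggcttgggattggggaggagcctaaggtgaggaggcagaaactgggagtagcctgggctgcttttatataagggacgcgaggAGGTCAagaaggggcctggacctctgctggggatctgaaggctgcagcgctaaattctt
Rxra, chr2:27709042-27709341, plus strand: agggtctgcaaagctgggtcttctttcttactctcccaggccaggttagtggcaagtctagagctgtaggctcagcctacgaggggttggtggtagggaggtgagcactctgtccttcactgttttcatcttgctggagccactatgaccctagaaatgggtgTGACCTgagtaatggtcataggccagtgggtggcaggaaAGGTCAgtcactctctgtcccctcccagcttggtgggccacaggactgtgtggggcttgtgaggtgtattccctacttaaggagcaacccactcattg
The Ppard window holds none of the motifs searched on both strands, namely the clock E-box CACGTG, the D-box TTATGTAA, AGGTCA and the direct repeat AGGTCANAGGTCA bound by PPAR and RXR dimers. Among all 32851 promoters of the table, CACGTG occurs in 7.15%, TTATGTAA in 0.938%, AGGTCA in 16.3% and the direct repeat in 0.0396%, and matches of the repeat also count as AGGTCA. Of the 8 entries of these genes, 3 hold AGGTCA and 0 hold any of the other motifs. The Ppard window has a GC content of 68.3%, against a median of 52.7% over the table. These matches describe letters in short windows.

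In Mu livers Ppard, the receptor found in nearly all tissues, was high at ZT18, ZT22 and ZT2 and low at ZT6 and ZT10, and in mouse rows of Hu livers it stayed low at every time. The Mu livers held 74.39 and 77.75 CPM at ZT2, 11.56 and 16.75 at ZT6, and 12.7 and 14.85 at ZT10. They rose to 35.9 and 20.73 CPM at ZT14, 81.39 and 79.73 at ZT18, and 102.8 and 107 at ZT22. Replicates of a time lay close together except at ZT14, and every Mu value at ZT18, ZT22 and ZT2 stood above every Hu value of any time. The Hu livers held 22.82, 30.49 and 22.6 CPM at ZT2, 13.46, 23.06 and 22.33 at ZT6, and 19.61 and 20.78 at ZT10. They held 21.1 and 23.75 CPM at ZT14, 19.72, 25 and 31.77 at ZT18, and 22.74 and 29.87 at ZT22. Mean Mu Ppard was therefore 3.01 times the Hu mean at ZT2, 3.16 times at ZT18 and 3.99 times at ZT22, and below it at ZT6 (0.722 times) and ZT10 (0.682 times).

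A cosine of period 24 h gave Ppard an amplitude (mean to peak, log2 scale) of 1.66 ± 0.12 (SE) in Mu livers and 0.23 ± 0.12 in Hu livers, equal to fitted peak-to-trough ratios of 9.97 and 1.38. The Mu peak fell at ZT 21.35 ± 0.29 (SE, h). The Hu peak was placed at ZT 21.11 with an error of 1.78 h. Leaving out each liver in turn kept the Mu amplitude between 1.58 and 1.71 and the Hu amplitude between 0.18 and 0.27. Since this contrast was used to choose the genes, these values are a description and carry no test.

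The Hu liver with the lowest human share, ZT2 replicate 1 at 15.86%, had 22.82 CPM of Ppard with a hepatocyte marker sum of 69800 CPM. The Mu livers of the same time had 74.39 and 77.75 CPM with marker sums of 129400 and 99160 CPM. At ZT22, where Mu livers peaked, the Hu livers at 42.72% and 52.5% human counts held 22.74 and 29.87 CPM. Without the Hu livers under 20 M mouse counts the fitted Hu amplitude was 0.16. The part of cell makeup in the flat Hu profile was not tested. When mouse counts were instead divided by all counts of the liver, human rows included, the Hu amplitude was 0.70. With that scaling 58.41% of all genes were called rhythmic in Hu livers. The human share enters that scaling and differed between sampling times.

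**Figure D1:**
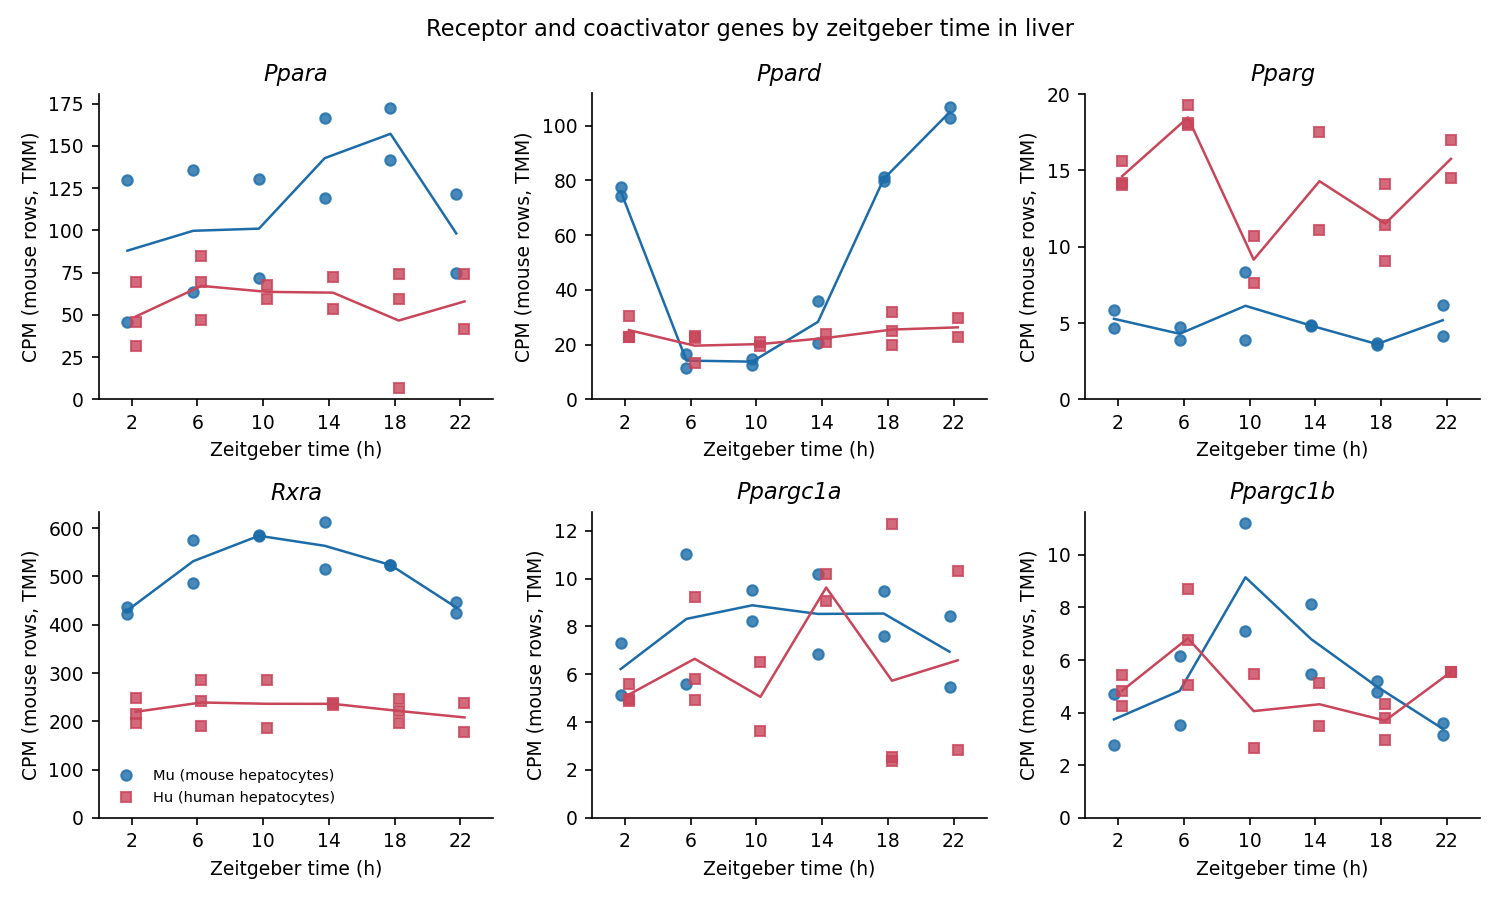
CPM of each gene in mouse rows (vertical axes, each from 0) against zeitgeber time in hours, one panel per gene; circles are the 12 Mu livers, squares the 15 Hu livers, and lines join the means at each time. Ppard in Mu livers runs from 11.56 to 107 CPM while Hu livers stay between 13.46 and 31.77 CPM, Pparg is higher and Rxra lower in Hu livers, and one Hu liver holds Ppara at 6.612 CPM.

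Among the other genes in liver, Ppargc1b, a coactivator tied to mitochondrial and lipid synthesis genes, was the other gene called rhythmic in Mu livers by edgeR's quasi-likelihood test. It rose from 2.781 and 4.704 CPM at ZT2 to 7.09 and 11.2 CPM at ZT10 and fell back to 3.612 and 3.16 CPM at ZT22. Its fitted amplitude was 0.67 ± 0.15 in Mu livers with a peak at ZT 11.51 ± 0.87, and 0.32 ± 0.13 in Hu livers. In Hu livers the mean was highest at ZT6, at 6.83 CPM (5.047 to 8.687 CPM), and lowest at ZT18 (2.947 to 4.344 CPM). These times were picked after the values were seen, and the human share differed between them. Ppargc1b was not called rhythmic in Hu livers (adjusted p = 0.349, edgeR). Rxra peaked at ZT 11.80 ± 1.38 in Mu livers with an amplitude of 0.24 ± 0.08, and had 0.10 ± 0.08 in Hu livers. The amplitudes of Ppara (0.39 ± 0.26), Ppargc1a (0.23 ± 0.24) and Pparg (0.15 ± 0.15) in Mu livers were small beside their errors. In Hu livers the same genes had 0.22 ± 0.24, 0.21 ± 0.22 and 0.25 ± 0.13.

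Counted beside the background, 2 of the 6 genes (Ppard and Ppargc1b) were called rhythmic in Mu livers, where 17.3% of all genes tested were. In Hu livers 0 of 6 were called by edgeR, 0 of 6 at an unadjusted p under 0.05 and 0 of 6 by DESeq2, against 0.167% of all genes by edgeR. A different rhythm between arms was called for 1 of 6, Ppard, against 1.28% of all genes, and DESeq2 called 2, adding Ppargc1b. Nothing is read from these counts, since the liver rhythm was used to choose the genes. Ppargc1b lost its call in Mu livers when Mu ZT10 replicate 2 was left out (adjusted p = 0.0545, edgeR), and without Mu ZT6 replicate 1 it was called for a different rhythm (adjusted p = 0.0471).

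**Figure D2:**
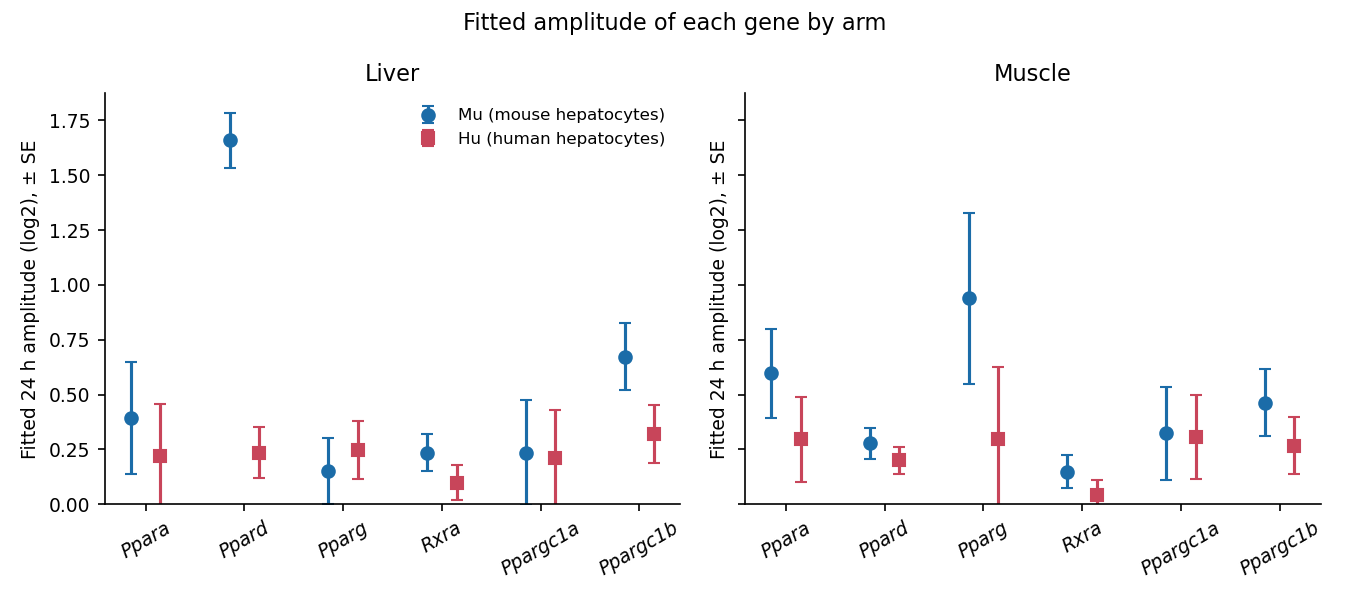
Fitted 24 h amplitude on the log2 scale with its standard error (vertical axis) for each gene in liver (left) and muscle (right); circles are Mu and squares Hu libraries, and error bars are cut off at 0. The Mu liver value of Ppard, 1.66, stands above all others, and the remaining liver and muscle amplitudes run from 0.04 to 0.94, the latter being Pparg in Mu muscle, which is 0.26 without Mu ZT2 replicate 2.

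The 5 genes whose log2 CPM went most closely with Ppard over the 12 Mu livers were Sox9 (Pearson r = 0.96), Gfod1 (0.92), Fam222a (0.92), Slc11a2 (0.91) and Ppp1r3c (0.91), of 14977 genes tested. These r values describe 12 libraries that share 6 sampling times, and carry no test. Sox9 is a transcription factor of bile duct cells, Slc11a2 an iron transporter and Ppp1r3c a glycogen-targeting subunit of protein phosphatase. Their Mu peaks lay between ZT 20.48 and ZT 21.32, beside ZT 21.35 for Ppard. The choice by likeness to Ppard in these livers sets such peaks in advance, and favours large Mu amplitudes. Sox9 had an amplitude of 0.92 in Mu and 0.03 in Hu livers, Gfod1 1.44 and 0.26, Fam222a 0.98 and 0.12, Slc11a2 0.59 and 0.07, and Ppp1r3c 1.05 and 0.38. Over all genes the median amplitude was 0.271 in Mu and 0.196 in Hu livers. Sox9 was the 1 of them with a higher mean in Hu livers, 25.88 CPM against 12.3 CPM.

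The time-averaged levels asked which members differ between arms whatever the hour. In liver, Pparg, the fat storage receptor, was higher in Hu livers, while Rxra, the shared partner, Ppard and Ppara were lower. The 2 coactivators did not pass the test. These directions are relative to the other mouse genes, whose median difference (Hu minus Mu) was 0.066 on the log2 scale after TMM scaling. Among all genes, 42.5% were called higher and 37% lower in Hu livers, beside 1 higher and 3 lower of the 6, and nothing is read from counts over so few genes. Of all called genes, 53.5% were higher under TMM, 84.9% when the mouse total was used with no TMM factor (median of all genes 0.740) and 21.7% when human rows were counted in the library size (median -0.696).

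Pparg ran from 3.556 to 8.349 CPM in Mu livers (median 4.689, n = 12) and from 7.604 to 19.25 CPM in Hu livers (median 14.17, n = 15). All but 1 of the 15 Hu livers, ZT10 replicate 1, stood above every Mu liver. The share of all genes that come so near to separating the arms was not counted, and 42.5% were called higher in Hu livers. The difference was 1.51 ± 0.15 (log2, SE), or 2.85 times the Mu level, with an adjusted p of 2.6e-09 by edgeR's quasi-likelihood test. Markers of the non-hepatocyte cells of the liver were higher in the same Hu livers, with stellate sums of 603.4 to 5426 CPM against 487.5 to 696.5 CPM in Mu livers and bile duct sums of 265.6 to 906.2 CPM against 95.86 to 188.2 CPM. Endothelial sums were 427.9 to 2788 CPM against 396.5 to 568 CPM, and Kupffer sums 643 to 2799 CPM against 621.4 to 1145 CPM. Of the 6 fat cell markers only Adrb3 passed the filter, with means of 3.651 CPM in Hu and 29.13 CPM in Mu livers, and Adipoq, Plin1, Lep, Cfd and Retn had means near 0 in both arms. The part of these cells in the Pparg level was not tested. Relative to the median of all genes, Pparg stood between 1.41 and 1.48 higher under the 4 scalings run. A scaling moves all genes of a library alike, so taking off the median removes most of its effect. Such a narrow range was therefore largely set in advance and is no sign of stability. The same holds for the ranges of this kind given for other genes and lists below.

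Rxra, the most abundant of the 6 by exon length, ran from 422.4 to 611.8 CPM in Mu livers (median 519) and from 177.4 to 285.7 CPM in Hu livers (median 233.9). The groups did not overlap. How many of all genes separate the arms so was not counted, and 79.5% of all genes were called for liver level. Hu livers held 44.67% of the Mu level, a difference of -1.16 ± 0.08 (adjusted p = 1.09e-11, edgeR), and -1.21 to -1.23 relative to the median of all genes under the 4 scalings. The Hu livers with the lowest and the highest human share, 15.86% and 93.07%, held 248.3 and 221.2 CPM. With the hepatocyte marker level as a covariate the difference was -0.94. Marker sums were 7645 to 85240 CPM in Hu and 99160 to 132600 CPM in Mu livers, without overlap. Values with this covariate therefore extrapolate and are not read as adjusted differences. This holds for each gene and list below.

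Ppara, the hepatocyte receptor of fasting, ran from 45.99 to 172.7 CPM in Mu livers (median 125.9) and from 6.612 to 85.07 CPM in Hu livers (median 59.65). Every Hu liver lay below the Mu median, but 4 lay below every Mu liver. Replicates of a time differed widely in Mu livers, with 45.99 and 130 CPM at ZT2. The difference was -0.98 ± 0.24 (adjusted p = 0.000794, edgeR). The lowest value, 6.612 CPM, came from the liver with the lowest hepatocyte marker sum, Hu ZT18 replicate 3, and without each library in turn the difference stayed between -1.04 and -0.88. With no TMM factor the difference was -0.37 (adjusted p = 0.108, edgeR). With the hepatocyte marker level as a covariate, an alternative chosen after seeing the data, the sign turned to 1.09 (adjusted p = 0.0834, edgeR). That value too extrapolates, since the marker sums of the arms do not overlap.

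Ppard, averaged over the day, differed by -0.78 ± 0.12, with 15 of 15 Hu livers below the Mu median of 55.15 CPM and inside the Mu range. This average covers the hours of the Mu peak and of the Mu trough, and since that peak helped to choose the genes the value is a description. With no TMM factor it was -0.08, and relative to the median of all genes it stood between -0.82 and -0.89 under the 4 scalings. Ppargc1a ran from 5.129 to 11.02 CPM in Mu and from 2.372 to 12.29 CPM in Hu livers, a difference of -0.29 ± 0.23 (adjusted p = 0.241). The Hu livers spread on both sides of the Mu range, with 7 below it and 1 above it. Ppargc1b ran from 2.781 to 11.2 CPM in Mu and from 2.648 to 8.687 CPM in Hu livers, a difference of -0.11 ± 0.15 (adjusted p = 0.494). Both coactivators turned positive with no TMM factor, Ppargc1a to 0.31 (adjusted p = 0.162) and Ppargc1b to 0.53 (adjusted p = 0.00132). With human rows in the library size both were called lower, at -0.99 (adjusted p = 0.00351) and -0.83 (adjusted p = 0.0024). With the hepatocyte marker level as a covariate Ppargc1a was called higher (1.36, adjusted p = 0.0148), and Ppargc1b stood at 0.47 (adjusted p = 0.299).

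**Figure D3:**
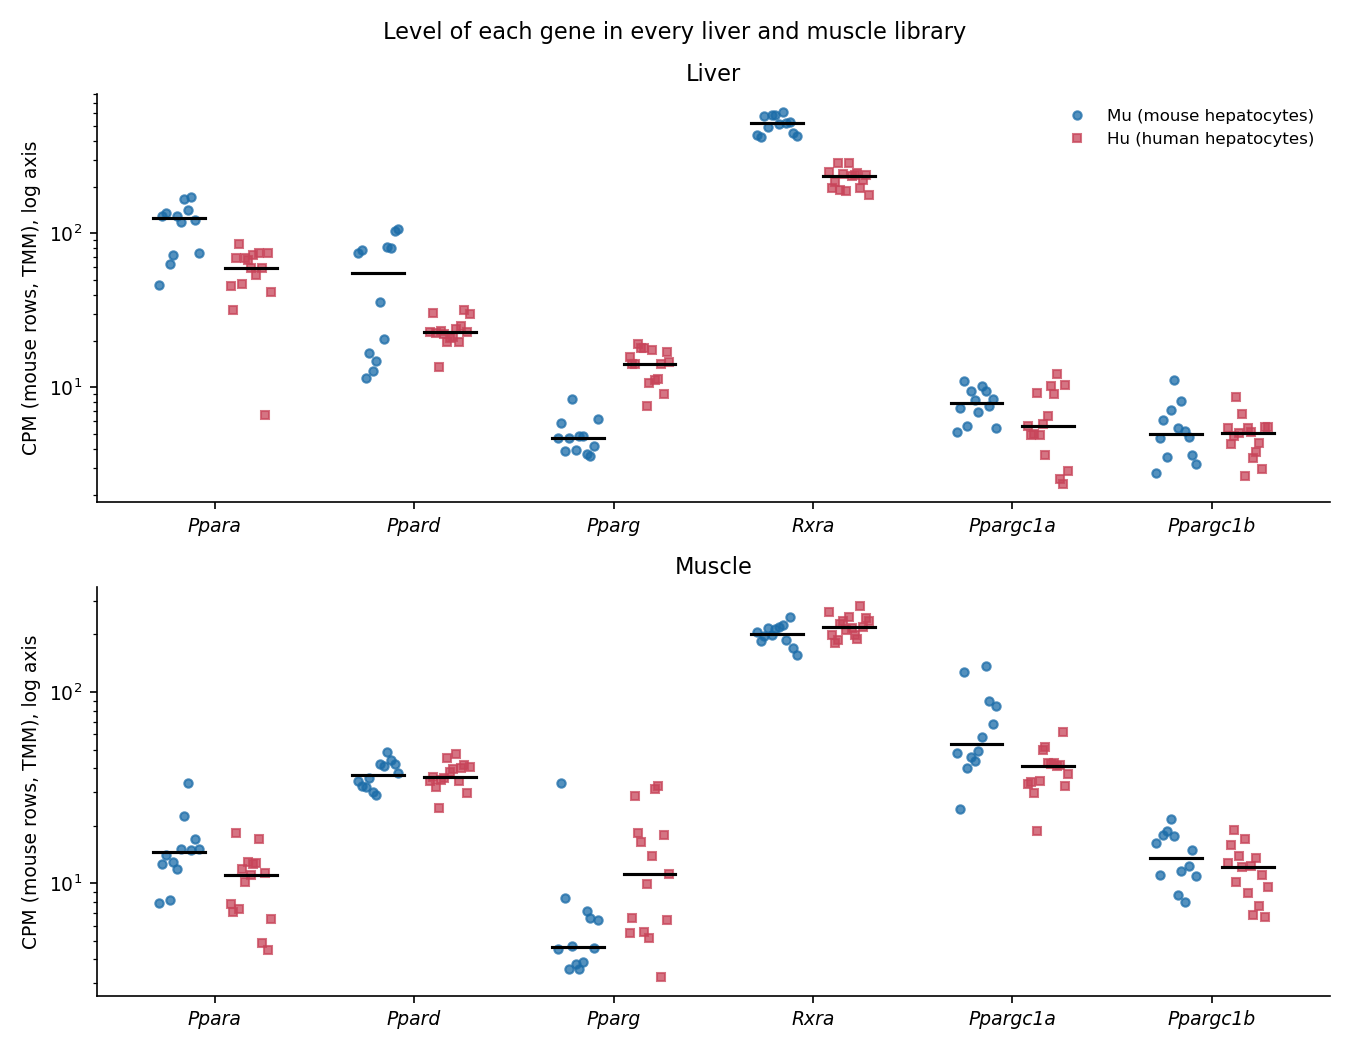
CPM of each gene in every library (vertical axis, log scale) in liver (top) and muscle (bottom); circles are Mu, squares Hu libraries and black bars the medians. In liver Rxra separates the arms without overlap and Pparg nearly so, while in muscle the groups overlap for all 6 genes.

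Over the 15 Hu livers, log2 CPM of the members was set against the percent of counts in human rows. No member passed after Benjamini-Hochberg adjustment over the 6 relations (permutation tests with 100000 resamples, 2-sided). Time was not in these tests, and the share differed between times. It was 15.86 to 73.94% at ZT2, 24.96 to 65.29% at ZT6 and 66.33 to 81.33% at ZT10. At ZT14 it was 67.88 to 79.76%, at ZT18 53.68 to 93.07% and at ZT22 42.72 to 52.5%. Relations with the share are thus not separate from time of day. Pearson r was -0.56 for Ppargc1b and -0.55 for Pparg (adjusted p = 0.104 each), -0.50 for Ppara and 0.46 for Ppard (adjusted p = 0.12 each). It was -0.22 for Ppargc1a and -0.16 for Rxra. Spearman rho was -0.50 for Ppargc1b, -0.51 for Pparg, -0.39 for Ppara, 0.23 for Ppard, -0.17 for Ppargc1a and -0.11 for Rxra, with adjusted p from 0.175 to 0.696. Without the 2 livers farthest from the median share, r was -0.48 for Ppargc1b, -0.46 for Pparg, -0.46 for Ppara, 0.43 for Ppard, -0.05 for Ppargc1a and -0.07 for Rxra. Single livers also moved it by over 1.5 times: without Hu ZT18 replicate 3 it was -0.21 for Ppara and -0.02 for Ppargc1a, and without Hu ZT6 replicate 1 it was 0.26 for Ppard, -0.12 for Ppargc1a and 0.04 for Rxra. For Rxra it was also -0.07 without Hu ZT2 replicate 1 and -0.35 without Hu ZT10 replicate 2.

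Genes that these receptors are known to drive were read from lists chosen with earlier results of these data known. Of 26 fatty acid oxidation and ketone genes tested in liver, 18 were lower and 1 higher in Hu livers, where 37% of all genes were lower and 42.5% higher, with a median difference of -1.02 against 0.07 over all genes. The thiolases Acaa1a (-1.46 ± 0.13), Acaa1b (-2.25 ± 0.26) and Acaa2 (-1.95 ± 0.17) and the dienoyl-CoA reductase Decr1 (-1.34 ± 0.16) had the smallest p. For each of them 15 of 15 Hu livers lay below every Mu liver. They were named by p, and the share of all genes that separate so was not counted. Acaa1b, for instance, held 1345 ± 355 CPM (SD, n = 12) in Mu and 297.2 ± 145.3 CPM (SD, n = 15) in Hu livers. The 1 that rose was Slc27a1, a fatty acid transporter (1.06 ± 0.13), named after its value was seen. Relative to the median of all genes, the list's median stood between -0.98 and -1.14 under the 4 scalings. Hepatocyte markers were lower in the same livers, and with their level as a covariate 10 oxidation genes were higher and 0 lower, with a median of 0.60. With that covariate 4767 of 14977 genes were called, 2834 of them higher, and the median of all genes was 0.031.

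Of 18 genes of lipid uptake, storage and signalling tested in liver, 9 were lower and 8 higher, beside 37% lower and 42.5% higher among all genes, with a median of -0.52. The median was 0.23 with no filter on low counts (20 genes), and with the hepatocyte marker level as a covariate 7 were higher and 3 lower, with a median of 0.83. Fabp1, the liver fatty acid carrier, fell from 4351 ± 1158 to 287.4 ± 149.0 CPM (SD), a difference of -3.99 ± 0.32. The monoglyceride lipase Mgll (-2.16 ± 0.11) and the acyl-CoA synthetase Acsl1 (-2.38 ± 0.22) also fell. Cd36, the fatty acid translocase, rose from 85.27 ± 33.51 to 367 ± 102.8 CPM (2.05 ± 0.17). All 15 Hu livers lay above every Mu liver for Cd36, again with no count of such genes among all. Of 28 partners and regulators, 9 were lower and 10 higher, with a median of -0.01. The estrogen-related receptors Esrrg (-3.29 ± 0.30) and Esrra (-0.82 ± 0.11) and the retinoid receptor Rxrg (-2.30 ± 0.25) fell, and Prkaa1, a catalytic subunit of AMPK, rose (1.18 ± 0.08). The partner counts followed the scaling, with 21 higher and 4 lower with no TMM factor and 0 higher and 22 lower with human rows in the library size. The storage counts were 9 higher and 7 lower, and 5 higher and 10 lower, under the same scalings. With the hepatocyte covariate 6 partners were higher and 3 lower. Beside these list counts, 31.8% of all genes were called with that covariate, 2834 of 4767 being higher.

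For rhythm in liver, 1 of 26 oxidation genes (Cpt1a), 4 of 18 storage genes (Pnpla2, Plin2, Mgll, Plin4) and 11 of 28 partner genes (among them Nrip1, Lpin1 and Rxrb) were called in Mu livers, beside 17.3% of all genes. In Hu livers edgeR called 0 genes of each list, beside 0.167% of all genes, with 2, 4 and 2 at an unadjusted p under 0.05. A different rhythm was called for 0 genes of each list, beside 1.28% of all genes, with 2, 3 and 11 at an unadjusted p under 0.05. Among the partners Nrip1 had the smallest p in Mu livers, with an amplitude of 0.77 peaking at ZT 19.08 against 0.15 in Hu livers. Lpin1, a lipin that acts with PGC-1α in the nucleus, had 1.18 in Mu and 0.74 in Hu livers, with peaks at ZT 14.19 and ZT 13.67. These liver rhythms come from the contrast used to choose the genes.

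Skeletal muscle holds no transplanted cells, and its libraries were counted against mouse rows alone. There the comparison asked whether the receptors and coactivators of a tissue outside the liver differ with the hepatocytes' origin. Ppargc1a was lower and Pparg higher in Hu muscle, and the remaining 4 genes did not pass. Among all genes tested in muscle, 13.5% were higher and 13.3% lower, beside 1 higher and 1 lower of the 6.

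Ppargc1a ran from 24.52 to 136.5 CPM in Mu muscle (median 53.74, n = 12) and from 18.64 to 61.66 CPM in Hu muscle (median 41.23, n = 15). The groups overlapped, with 14 of 15 Hu libraries below the Mu median. The highest Mu values were 136.5 and 89.18 CPM at ZT18, 127 CPM in ZT6 replicate 1, and 84.47 CPM in ZT22 replicate 2. Both Hu libraries at ZT14 stood at 41.81 and 42.71 CPM, and at ZT18 the Hu libraries held 41.23, 41.63 and 61.66 CPM. The difference was -0.76 ± 0.20, or 59.14% of the Mu level (adjusted p = 0.00838, edgeR). It passed in 27 of 27 fits that each left out 1 library, with differences from -0.85 to -0.49.

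Slow fibre markers, which mark oxidative muscle fibres, also differed in part between the arms. Their sum ran from 118.5 to 2147 CPM in Mu and from 80.03 to 776.7 CPM in the Hu arm, with 2 of 6 (Tnnt1 and Myl2) lower in Hu muscle and 3 of 7 fast fibre markers (Myh4, Actn3, Mybpc2) higher. The Mu libraries with the most Ppargc1a, ZT18 replicate 1 and ZT6 replicate 1, had slow fibre sums of 1107 and 2147 CPM, though Mu ZT10 replicate 1 had 1257 CPM with 45.61 CPM of Ppargc1a. With slow fibre markers as a covariate the Ppargc1a difference was -0.55 (adjusted p = 0.0624, edgeR). It was -0.66 with fast fibre markers (adjusted p = 0.052) and -0.73 with fat cell markers (adjusted p = 0.0925). The part of fibre types in the Ppargc1a difference was not tested.

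Pparg ran from 3.563 to 33.29 CPM in Mu muscle (median 4.629) and from 3.223 to 32.06 CPM in Hu muscle (median 11.19). In Mu muscle 11 of 12 libraries lay at or below 8.39 CPM and ZT2 replicate 2 stood alone at 33.29 CPM. In Hu muscle the values spread from 3.223 CPM (ZT18 replicate 2) to 28.43, 31.03 and 32.06 CPM in ZT2 replicate 3, ZT14 replicate 2 and ZT18 replicate 1. The difference was 1.07 ± 0.38 (adjusted p = 0.0381, edgeR), and 14 of 15 Hu values were above the Mu median. Leaving out 1 library ended the call in 14 of 27 cases (adjusted p up to 0.073).

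Fat cell markers also differed between the arms in muscle. Their sum ran from 6.926 to 762.3 CPM in Mu and from 88.24 to 1659 CPM in the Hu arm, and Adipoq, Plin1, Cfd and Retn were higher in Hu muscle, with Lep and Adrb3 not past the threshold. The Mu library with 33.29 CPM of Pparg, ZT2 replicate 2, also held the highest Mu marker sum, 762.3 CPM. The Hu libraries with 31.03 and 32.06 CPM held sums of 1659 and 1205 CPM, and the Hu library with 3.223 CPM held 88.24 CPM. With fat cell markers as a covariate the Pparg difference was -0.34 (adjusted p = 0.542, edgeR). The part of fat cells in the Pparg difference was not tested.

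**Figure D4:**
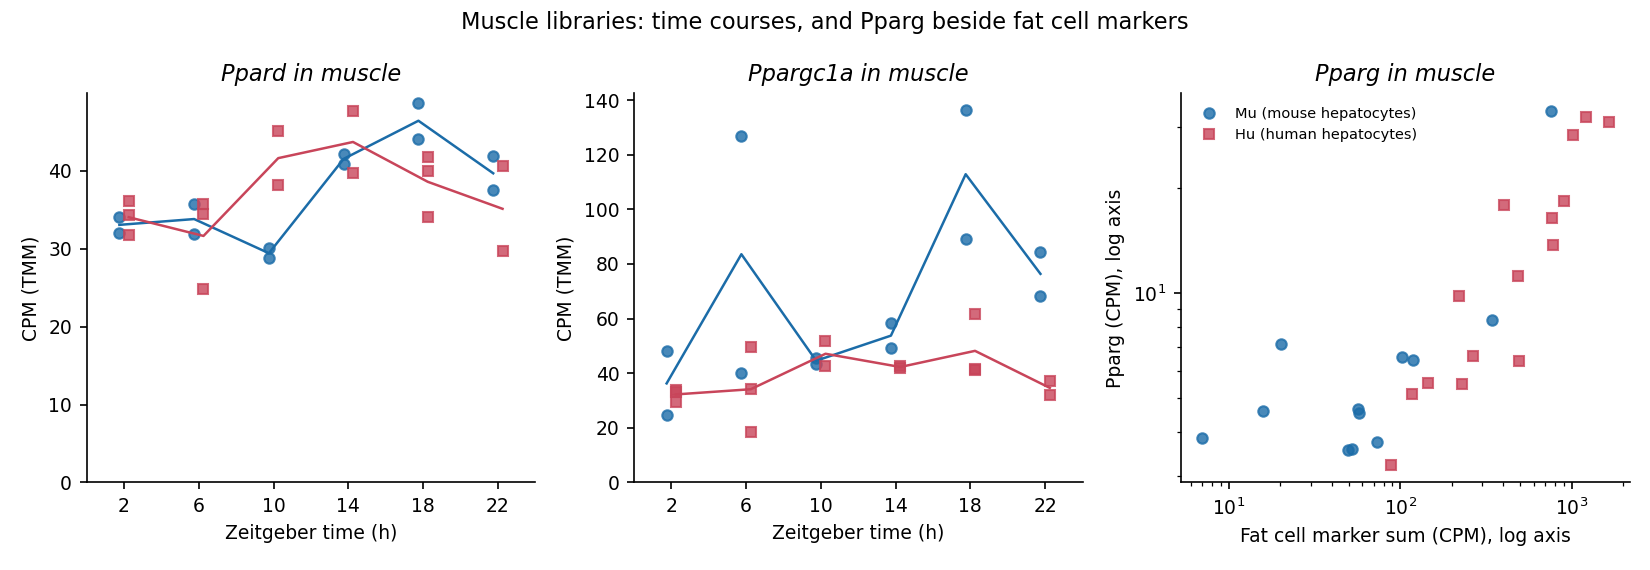
Left and middle, CPM of Ppard and Ppargc1a in muscle (vertical axes from 0) against zeitgeber time in hours; right, CPM of Pparg against the summed CPM of 6 fat cell markers, both on log axes; circles are Mu and squares Hu libraries, and lines join means. Ppargc1a peaks at 136.5 CPM among Mu and 61.66 CPM among Hu libraries, and the libraries with the most Pparg in both arms are those with high fat cell marker sums.

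Ppard in muscle did not pass for level: Mu libraries ran from 28.76 to 48.73 CPM and Hu libraries from 24.79 to 47.64 CPM, a difference of 0.00 ± 0.07 (adjusted p = 0.972). It was the 1 gene of the 6 called rhythmic in Mu muscle, where 5.31% of all genes were, with an amplitude of 0.28 ± 0.07 and a peak at ZT 18.38 ± 0.97 (adjusted p = 0.0446, edgeR). The Mu values were lowest at ZT10, 30.09 and 28.76 CPM, and highest at ZT18, 48.73 and 44.13 CPM. In Hu muscle the amplitude was 0.20 ± 0.06 with a peak at ZT 14.35 ± 1.22 (adjusted p = 0.0913), highest at ZT14 with 39.77 and 47.64 CPM. In Hu muscle 0 of the 6 were called, with 7.78% of all genes called, 1 at an unadjusted p under 0.05 (Ppard), and 0 by DESeq2. A different rhythm was called for 0 of 6, with 0.0704% of all genes called, 0 at an unadjusted p under 0.05 and 0 by DESeq2 (Ppard adjusted p = 0.366, edgeR). The Mu muscle call of Ppard was lost in 16 of 27 cases when 1 library was left out (adjusted p up to 0.155), with time as a factor (0.196) and with no filter on low counts (0.0636). Without Mu ZT6 replicate 1, the Mu library of that time with 127 CPM of Ppargc1a, Ppargc1a was called rhythmic in Mu muscle (adjusted p = 0.00989, amplitude 0.79 against 0.32 with all libraries).

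Among the remaining members in muscle, Ppara held 7.876 to 33.48 CPM in the Mu arm and 4.449 to 18.33 CPM in the Hu arm, a difference of -0.51 ± 0.19 that missed the threshold (adjusted p = 0.0537, edgeR). The Mu library with 33.48 CPM was ZT18 replicate 1, and 13 of 15 Hu libraries lay below the Mu median of 14.46 CPM. DESeq2 called Ppara (-0.51, adjusted p = 0.0336), as did edgeR with the replicate block (adjusted p = 0.0157), with fat cell markers as a covariate (-0.85, adjusted p = 0.0458) and in 5 of 27 fits that each left out 1 library. Ppargc1b held 7.925 to 21.59 CPM (Mu) and 6.682 to 19.04 CPM (Hu), not past the threshold (-0.25 ± 0.15, adjusted p = 0.214). Rxra held 156.9 to 246.2 CPM (Mu) and 180.4 to 283.2 CPM (Hu), not past it either (0.14 ± 0.07, adjusted p = 0.134), and the direction turned with fast fibre markers as a covariate (-0.02).

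Of 24 oxidation genes tested, 13 were lower and 0 higher in Hu muscle, where 13.3% of all genes were lower and 13.5% higher, with a median difference of -0.24 against 0.03 over all genes. DESeq2 called 13 lower and 3 higher, and leaving out 1 library gave 10 to 13 lower and 0 to 3 higher. The carnitine carrier Slc25a20 (-0.51 ± 0.09), the trifunctional protein subunit Hadha (-0.46 ± 0.09) and the acyl-CoA dehydrogenases Acadl (-0.54 ± 0.10) and Acadvl (-0.47 ± 0.10) had the smallest p. Hadha held 543.5 ± 60.55 CPM (SD, n = 12, Mu) and 395.7 ± 67.94 CPM (SD, n = 15, Hu), with 12 Hu libraries below every Mu library. It was named by p, and the share of all genes that separate so was not counted. Of 28 partners, 7 were lower and 1 (the deacetylase Sirt1, 0.20 ± 0.07, named after its value was seen) higher. DESeq2 called 8 lower and 5 higher, and leaving out 1 library gave 6 to 8 lower and 0 to 3 higher. Those that fell include the PGC-1 partners Esrrg (-1.52 ± 0.23) and Esrra (-0.55 ± 0.11), the muscle regulator Perm1 (-0.87 ± 0.19), and the mitochondrial deacetylase Sirt3 (-0.53 ± 0.09). Of 17 storage genes tested, Vnn1 (3.30 ± 0.53), the lipid droplet gene Cidec (2.53 ± 0.59) and Plin4 (0.46 ± 0.14) rose and the muscle fatty acid carrier Fabp3 (-1.42 ± 0.20) fell. Some slow fibre markers were lower and fat cell markers higher in the same Hu muscles. With fat cell markers as a covariate 0 oxidation genes were higher and 9 lower, 0 partners higher and 2 lower, and 1 storage gene higher and 1 lower (median -0.46). With slow fibre markers 0 oxidation genes were higher and 9 lower, 0 partners higher and 6 lower, and 3 storage genes higher and 1 lower (median 0.225). With fast fibre markers 4 oxidation genes were higher and 5 lower, 3 partners higher and 8 lower, and 8 storage genes higher and 2 lower (median 0.44). Among all genes, in either direction, 7.04% were called with fat cell, 19.7% with slow fibre and 31.8% with fast fibre markers.

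For rhythm in muscle, edgeR called 1 of 24 oxidation genes (Cpt1a), 3 of 17 storage genes (G0s2, Txnip, Angptl4) and 4 of 28 partners (Nrip1, Tbl1xr1, Ep300, Ncoa3) in Mu muscle, beside 5.31% of all genes. In Hu muscle it called 0 oxidation genes (2 at an unadjusted p under 0.05), 2 storage genes (Plin4, G0s2) and 6 partners (among them Nrip1, Kat2a, Tbl1xr1 and Lpin1), beside 7.78% of all genes. The 1 list gene with a different rhythm, beside 0.0704% of all genes, was Nrip1, a corepressor of nuclear receptors, with amplitudes of 1.001 in Mu and 0.93 in Hu muscle and peaks at ZT 14.47 and ZT 11.10 (adjusted p = 0.0358). A different rhythm was called for 0 oxidation genes (2 at an unadjusted p under 0.05) and 0 storage genes (5).

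Among the genes that went most closely with Ppargc1a over the 27 muscle libraries were Zfp770 (Pearson r = 0.87), Bag3 (0.87), Urgcp (0.86) and Rusc1 (0.85), of 14197 genes tested. Bag3 encodes a chaperone partner that maintains contracting muscle fibres. Its mean was 220.7 CPM in the Mu and 126.3 CPM in the Hu arm, a difference of -0.76. The libraries share arms and times, and the genes were chosen over both arms. The r values and the Bag3 difference therefore describe the pattern and carry no test.

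In the ARC and the SCN, hypothalamic nuclei of feeding control and of the central clock, no member passed a test. Differences in the ARC ran from -0.05 (Ppargc1b, SE 0.09) to 0.11 (Ppara, SE 0.11), and in the SCN from -0.07 (Ppara, SE 0.12) to 0.03 (Ppargc1b, SE 0.09). For level edgeR called 0 of 6 in each region, with 0.00663% of all genes in the ARC and 0% in the SCN, 0 at an unadjusted p under 0.05 and 0 by DESeq2. Rhythm was called for 0 of 6 in Mu ARC (1.41% of all genes), Hu ARC (0.0995%), Mu SCN (0.207%) and Hu SCN (0.00666%), and a different rhythm for 0 of 6 in each region (0% of all genes in both). For these rhythm tests 1 of them had an unadjusted p under 0.05, that of Ppara in Hu SCN, and DESeq2 called 0. In both regions the Hu arm had only 1 library at ZT6 and 1 at ZT22.

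Ppargc1a was the more abundant coactivator there, also per kilobase of exons, with 30.33 to 50.55 CPM (median 44.3) in Mu and 45.2 to 49.55 CPM (median 47.17) in Hu ARC. There 10 of 10 Hu values were above the Mu median, with a difference of 0.09 ± 0.06 (adjusted p = 0.999, edgeR). In the SCN it ran from 43.41 to 86.84 CPM (median 64.35) in Mu and from 41.63 to 88.75 CPM (median 62.54) in Hu libraries. Ppard had ARC medians of 16.75 (Mu) and 17.08 CPM (Hu) and SCN medians of 20.77 (Mu) and 21.27 CPM (Hu), within ranges from 13.37 to 24.85 CPM. Pparg was low, from 0.2113 to 0.7534 CPM in Mu ARC and from 0.2781 to 1.573 CPM in Hu SCN, with as few as 6 counts in a library. Of the lists, Plin4 was called rhythmic in Mu ARC (amplitude 1.73) and Mu SCN (1.78), Gabpa in Mu ARC (0.15), with 0 list genes called in Hu libraries, for level or for a different rhythm by edgeR. At an unadjusted p under 0.05 these tests gave 0 to 4 genes per list and region.

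Set per kilobase of exons, the members take different orders in liver, in muscle and in the brain regions, with the same order in Mu ARC and Mu SCN. Liver and the other tissues were counted in separate tables, so these orders describe levels and no test was run across tables. In Mu liver Rxra led at 93.64 ± 12.46 CPM per kb (SD, n = 12), then Ppara at 29.84 ± 10.71, Ppard at 7.049 ± 4.984, Pparg at 1.655 ± 0.4619, Ppargc1b at 1.374 ± 0.6047 and Ppargc1a at 1.199 ± 0.2928. The last 3 lay within their spread of each other. In Hu liver the order was Rxra (41.51 ± 6.143, n = 15), Ppara (14.9 ± 5.261), Pparg (4.79 ± 1.2), Ppard (3.097 ± 0.6222), Ppargc1b (1.235 ± 0.3793) and Ppargc1a (0.9624 ± 0.4775), so that Pparg stood above Ppard. In Mu muscle Rxra (36.89 ± 4.537) was followed by Ppargc1a (10.3 ± 5.319) and Ppard (4.967 ± 0.8311), with Ppara (4.028 ± 1.788), Ppargc1b (3.533 ± 1.083) and Pparg (2.549 ± 2.8) not separated beyond their spread. In the ARC and SCN of both arms Rxra and Ppargc1a led, from 6.727 to 10.49 CPM per kb, and Ppara and Pparg came last, from 0.1624 to 0.5461.

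**Figure D5:**
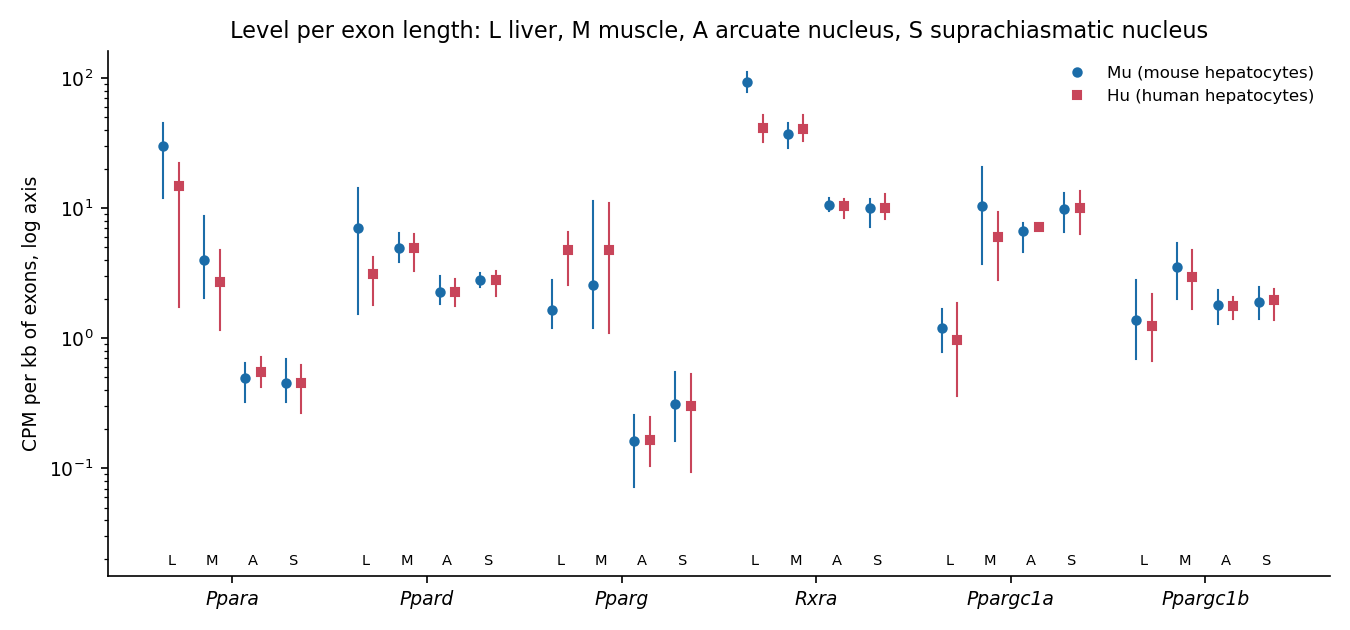
Mean CPM per kilobase of exons (vertical axis, log scale) of each gene by tissue (letters under each group), with circles for Mu, squares for Hu and vertical lines from the lowest to the highest library. Ppara is highest in liver and Ppargc1a lowest there, and the ranges of the arms overlap in the ARC and SCN.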

How the data were processed

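The authors deposited raw counts per gene, 1 table for liver (mouse and human rows) and 1 for muscle, ARC and SCN, 98 libraries in all. Per the labels' protocols, libraries were made with a strand-marking kit from total RNA. Per the submitters' processing notes, STAR was used, with builds GRCm38, mm10, GRCh38, hg38 and hg19 named. The counting tool, its strand setting and the handling of reads that match both species are not given in the sources used here, and human reads counted in mouse rows would add to Hu livers.

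Groups come from the sample labels. The Hu columns of ARC and SCN at ZT22 carry a replicate number that no label of their group has. They were placed by the tissue, arm and time in the column name. Mouse rows of each tissue were modelled separately in edgeR 4.0.16 (R 4.3.3): filterByExpr by arm, TMM scaling, and a quasi-likelihood model with arm and a 24 h cosine and sine per arm. Level, rhythm in Mu, rhythm in Hu and different rhythm were tested, with Benjamini-Hochberg adjustment over all genes tested and a threshold of 0.05. CPM use the mouse library size after TMM, log2 CPM use a prior count of 2, and CPM per kb use exon lengths of GENCODE vM21. Depths are given with the results. Replicate numbers were checked as pairs: over liver, muscle, ARC and SCN the mean correlation of same-numbered deviations was 0.115, 0.0249, 0.13 and 0.12, and not every pair was above 0.1, so they were not used as a block. The scripts were tested on simulated data.

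The members and lists were chosen with earlier results of these data known. The genes named are the 6 members, up to 4 genes per list and comparison with the smallest p among those past the threshold, and the 5 nearest in pattern to Ppard in Mu livers and to Ppargc1a in muscle; some genes that this rule names are not reported here. Alternatives were DESeq2 1.42.0, other scalings and filters, time as a factor, the replicate block, marker covariates and leaving out each library. Those with no TMM factor and with hepatocyte, slow fibre and fast fibre covariates were chosen after seeing the data. Human rows carry no gene names here and were used for the human share and as an alternative library size.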

Additional observations from a re-analysis of the deposited data

Results flagged for a closer look

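The daily swing of Ppard in liver differed between the arms. The fitted amplitude was 1.66 in Mu and 0.23 in Hu livers, a difference (Hu minus Mu) of -1.42 on the log2 scale, and the test of the difference in rhythm was past the threshold. This contrast was used to choose the genes, so the test's outcome was set by that choice and the difference is a description here. With human rows in the library size the test was not past the threshold (adjusted p = 0.06165, edgeR). In the 12 sets of 10 Hu libraries (each gene in the ARC and in the SCN) that were looked at for a single library far from the others, 0 were found.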

How the results depend on the processing

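Of 1716 values of single genes under alternatives in liver and muscle, 1628 kept their side of the threshold, 44 lost the threshold, 22 passed it and 22 turned. Direction was compared for level and human share only, and rhythm values were judged by adjusted p alone. Most of these values come from fits that left out 1 library, which change the data little. For each gene and liver test there were 27 such fits beside 8 other alternatives. With time as a factor 1 gene was called rhythmic in Mu livers and 0 in Mu muscle. With human rows in the liver library size, 1 was called in Mu and 4 in Hu livers, 0 for a different rhythm, and 6 went with human share (Ppard r = -0.82); all 6 passed for level with that size, Ppargc1a at -0.99 (adjusted p = 0.00351) and Ppargc1b at -0.83 (adjusted p = 0.0024). DESeq2 called 2 for a different rhythm in liver. In muscle, level calls were 1 with fat markers as covariate (Ppara; Pparg and Ppargc1a lost theirs), 0 with slow and 1 (Pparg) with fast fibre markers, and rhythm calls in Mu were 0 without the filter on low counts. With the replicate block the muscle level calls were 2 (Ppara, adjusted p = 0.0157, and Ppargc1a; Pparg 0.94, adjusted p = 0.0876) and rhythm calls in Mu muscle 0 (Ppard, adjusted p = 0.0536), with no other change of a call among the 6 genes. Leaving out 1 library gave 1 to 2 calls for rhythm in Mu livers, 1 to 2 for different rhythm in liver, 1 to 3 for muscle level and 0 to 1 for rhythm in Mu muscle. Signs turned with no TMM factor for Ppargc1a (0.31) and Ppargc1b (0.53) in liver, with the hepatocyte covariate for Ppara (1.09), Ppargc1a (1.36) and Ppargc1b (0.47), with fat markers for Pparg in muscle (-0.34), and with fast fibre markers for Rxra (-0.017) and Ppard (-0.031) in muscle. Ppard in muscle was -0.0068 with the replicate block and -0.0167 to 0.0344 without 1 library, and Rxra against human share -0.35 to 0.039. Hepatocyte marker sums of the arms do not overlap, so values with that covariate extrapolate. The cause of these turns was not tested.

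Counts over all genes moved by over 1.5 times as follows. In liver, level calls were 11907, and 4767 with the hepatocyte covariate. Rhythm calls in Mu livers were 2598, 640 with time as a factor and 85 with human rows in the library size. In Hu livers they were 25, 8, 8605, 517 by DESeq2 and 41 without livers under 20 M mouse counts. Different rhythms were 192, 11, 11, 1154 by DESeq2, 107 with no filter and 111 with no TMM factor. In muscle, level calls were 3817 and 999 with fat markers. Rhythm calls were 754 in Mu (165 with time as a factor, 1495 by DESeq2), 1104 in Hu (440, 1707) and 10 for different rhythm (1, 158). In the ARC they were 1 for level (14 by DESeq2), 213 in Mu (29, 514) and 15 in Hu (2, 92, 40 with no filter, 5 with the block). In the SCN they were 31 in Mu (134, 290, 20 with the block) and 1 in Hu (0, 22). Depth limits Pparg in the ARC and SCN, with as few as 6 counts, and 7.699 M mouse counts in the shallowest Hu liver.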
